A study of Homo sapiens with 12 samples.

Results

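The ZNF genes are the numbered zinc finger genes, most of which encode sequence-specific DNA-binding proteins of the C2H2 type. They were chosen by their symbol, ZNF followed by a number alone, and selected on their measured level, a mean of at least 2 over the 12 log2 values of a gene. This gave 229 of the 11529 genes of the expression table. A further 38 numbered ZNF rows fell below the limit. As that mean comes from the same samples, the average level of these genes is a description only. Just inside the limit were ZNF487, ZNF404 and ZNF773 with means of 2.05, 2.06 and 2.07, and just outside were ZNF726, ZNF595 and ZNF677 with means of 1.99, 1.98 and 1.98.

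RNA sequencing covered 12 samples from a pair of established human triple-negative breast cancer (TNBC) cell lines: MDA-MB-231 and, as the second line, MDA-MB-468. Each line had 3 control samples, labelled wild type, and 3 SMARCA4 knockout (KO) samples. SMARCA4 (BRG1) is the motor protein of SWI/SNF complexes, which slide and evict nucleosomes. The KO cells were polyclonal pools, not clones. They had been transduced with a lentiCRISPR-v2 vector carrying a guide RNA against SMARCA4 and selected with puromycin. The labels give the controls the genotype wild type and the name Control, a name the study also uses for cells given a nontargeting vector, so whether these controls carried a vector is uncertain. The values are log2(FPKM + 1), where FPKM (fragments per kilobase of transcript, scaled to the total of mapped fragments) is a value per length, so that levels can be compared between genes. The read depth is unknown. The labels do not say that the 3 samples of a group were separate cultures, so p-values measure the spread between these samples, which may be technical.

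A C2H2 finger is a short fold held together by a zinc ion between 2 cysteines and 2 histidines, and its helix reads a few bases of DNA. Many ZNF proteins also carry a KRAB box, which recruits the corepressor TRIM28 (KAP1) and, through it, the histone methyltransferase SETDB1 and HP1 proteins. KRAB-ZNF genes arose by repeated tandem duplication, lie mostly in clusters on chromosome 19, and are known for silencing transposable elements. Other ZNF proteins act outside transcription, for example in spindle assembly or ribosome quality control. In the GENCODE coding sequences, 135 of the 229 genes encoded a KRAB box and 91 had a readable frame without one. On chromosome 19 lay 120 of them.

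The sequences below show what these proteins share and how they differ. They are the coding strand of 1 finger each from genes that carried the largest line differences or the KO results (GENCODE release 44 on GRCh37). Capitals mark the cysteine and histidine codons that were matched as zinc-binding.
ZNF655: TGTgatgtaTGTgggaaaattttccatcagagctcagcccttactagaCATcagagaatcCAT
ZNF713: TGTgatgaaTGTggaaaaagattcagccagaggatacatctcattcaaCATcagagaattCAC
ZNF773: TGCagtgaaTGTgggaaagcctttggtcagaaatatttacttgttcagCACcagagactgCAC
ZNF165: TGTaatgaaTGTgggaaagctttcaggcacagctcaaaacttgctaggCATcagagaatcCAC
ZNF22: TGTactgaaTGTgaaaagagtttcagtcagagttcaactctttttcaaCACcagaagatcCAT
ZNF175: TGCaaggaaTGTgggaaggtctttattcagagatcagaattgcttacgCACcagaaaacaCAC
ZNF444: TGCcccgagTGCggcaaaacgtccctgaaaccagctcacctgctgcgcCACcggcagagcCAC
ZNF488: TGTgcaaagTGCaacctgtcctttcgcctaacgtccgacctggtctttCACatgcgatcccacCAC
The 7 fingers of 63 bases keep the capitals at the same positions. The finger of ZNF488 is printed with 66 bases, but a further histidine codon, in lower case, stands directly before its last capitals. Read to that codon, it has 63 bases and the same spacing, so the printed length is no real difference. The bases between the second cysteine codon and the first histidine codon include part of the DNA-reading helix. Some of these bases are shared by several of the fingers and others differ from gene to gene. Because whole KRAB-ZNF genes are close copies of each other, the expectation-maximization step of RSEM can split reads between them, and values of neighbouring paralogs are uncertain to that extent.

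ZNF transcripts were of low to moderate abundance. Of the 229 genes, 101 had a mean log2(FPKM + 1) level from 2 to under 3, 87 from 3 to under 4, 28 from 4 to under 5 and 13 of 5 or more. The median of the means was 3.16, against 4.08 for all genes of the table. Genes with a KRAB box had a median mean level of 2.86 and those without one of 3.77. The highest level belonged to ZNF207 (BuGZ, a spindle assembly factor that binds BUB3), whose mean over the 12 samples was 6.48 on the log2 scale. Its 3 control samples read 6.46, 6.57 and 6.62 in MDA-MB-468 and 6.35, 6.54 and 6.43 in MDA-MB-231, so the lines overlapped. Next came ZNF706 with a mean of 6.17, ZNF146 with 5.97 and ZNF664 with 5.66, followed by ZNF638 with 5.54 and ZNF511 with 5.52. ZNF146 is made of fingers without a KRAB box, and ZNF638 is a nucleic acid-binding protein that recruits silencing factors to retroviral DNA. ZNF76 (a close relative of the promoter-binding factor ZNF143) had a mean of 5.50, ZNF259 (now named ZPR1) of 5.42, ZNF544 of 5.38 and ZNF185, an actin-associated LIM domain protein, of 5.30. Only ZNF544 among these 10 encoded a KRAB box. Neighbours in this order differed by less than 0.35, and 6 of the 10 genes were not called between the lines in control samples.

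The first question was how the ZNF genes differed between the cell lines. In control samples, 111 of the 229 genes (48.5%) were higher in MDA-MB-468 and 35 (15.3%) were lower, at a Benjamini-Hochberg adjusted p under 0.05 by limma and an absolute log2 difference over 0.5, which is what called means here. Of all genes in the table, a share of 32.8% was called higher and 31.4% lower. The median difference of the ZNF genes was 0.46, against 0.01 for all genes, and 164 of them lay above 0. The 3 control samples of MDA-MB-468 were all above those of MDA-MB-231 for 145 ZNF genes and all below for 55, where 43.2% and 42.3% of all genes did so. The median level of the ZNF genes ran from 3.33 to 3.43 over the 6 MDA-MB-468 samples and from 3.03 to 3.10 over the 6 MDA-MB-231 samples, without overlap. The medians of all genes in the same samples ran from 4.14 to 4.18. Fewer cells of a kind and less RNA per cell cannot be told apart in such bulk samples.

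**Figure D1:**
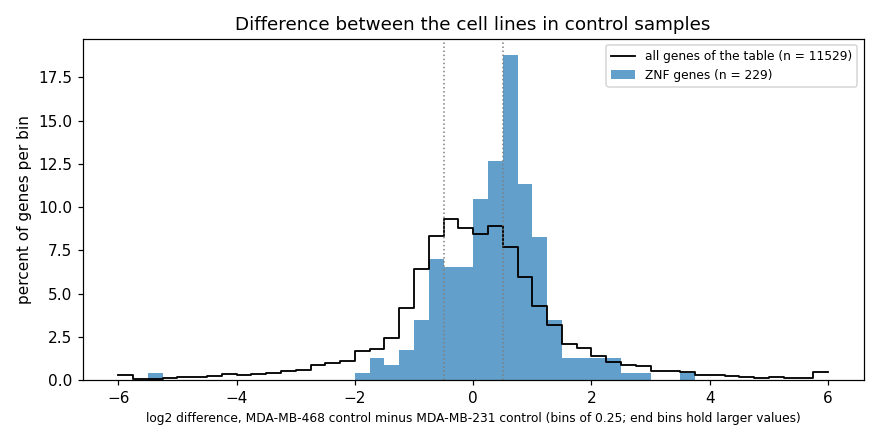
Share of genes per bin of 0.25 of the log2 difference between MDA-MB-468 and MDA-MB-231 control samples, for the 229 ZNF genes (bars) and all 11529 genes (line). The dotted lines mark the limit of 0.5 for a call, and the ZNF genes centre on a median of 0.46 where all genes centre on 0.01.

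The table itself favours genes that differ between the lines, since the authors removed genes with an SD of FPKM under 1, and a gene of low level passes that filter more easily when 1 line is high. The SD of FPKM was under 1.5 for 56 of the ZNF genes. Moreover, 30 of them had a mean under 2 in MDA-MB-231 and 12 in MDA-MB-468, and these passed the limit on the mean through the other line, so that they had to differ. The lean towards MDA-MB-468 was also present without them. Of the 187 ZNF genes with a mean of at least 2 in each line, 82 were higher in MDA-MB-468 and 23 lower, with a median difference of 0.40, against -0.02 for the 9073 genes of the table that met the same condition.

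In the SMARCA4 KO samples, which share no sample with the controls, 101 ZNF genes were higher in MDA-MB-468 and 41 lower, where 33.2% and 29.7% of all genes were called. The median difference was 0.45. The same direction was called in both sample sets for 121 genes, 91 of them higher and 30 lower in MDA-MB-468, and 0 genes were called in opposite directions. That is 82.9% of the control calls and 85.2% of the KO calls, where over all genes of the table the shares were 86.9% and 88.8%. Among the 187 genes with a mean of at least 2 in each line, 80 were called the same way, or 76.2% of 105 control calls and 80.0% of 100 KO calls. Of the 46 genes called in 1 set alone, 45 had the same sign in the other. As a description, the differences in control and in KO samples had a Pearson correlation of 0.97 and a Spearman correlation of 0.93 across the 229 genes, whose values within each set come from the same 6 libraries. The 42 genes under 2 in 1 line are part of both.

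**Figure D2:**
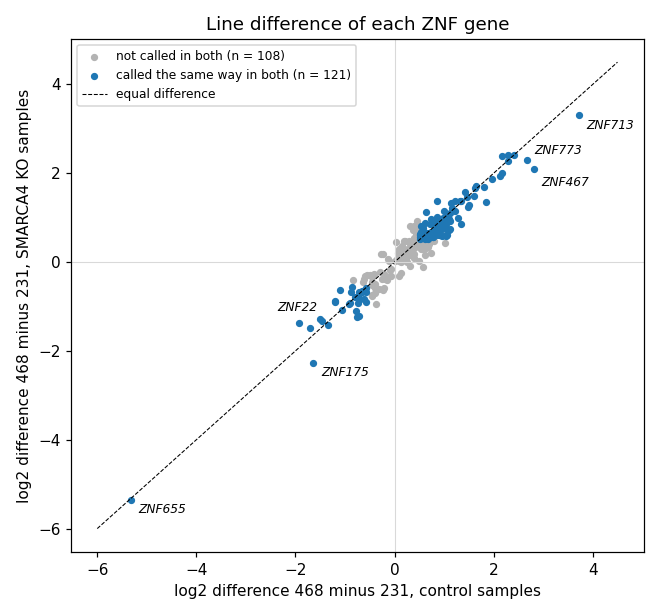
Log2 difference of each of the 229 ZNF genes, MDA-MB-468 minus MDA-MB-231, in control samples (horizontal) and in SMARCA4 KO samples (vertical). Most points lie near the dashed line of equal difference, with 121 genes called the same way in both, and ZNF175 and ZNF22 lie off it on opposite sides.

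Of the 16 genes described next as the 8 with the largest difference each way, 12 had a mean under 2 in 1 line and were among those that had to differ. They are all 8 that were higher in MDA-MB-468 and, among the lower, ZNF655, ZNF175, ZNF718 and ZNF182, and their values are a description with no test.

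The largest difference of all was that of ZNF655 (chr7:99156029-99174076 on GRCh37, forward strand), which encodes a protein first described through its binding to VAV1. It read 0.08, 0.00 and 0.03 in the MDA-MB-468 controls and 5.44, 5.24 and 5.39 in the MDA-MB-231 controls. The KO samples gave 0.00, 0.00 and 0.03 against 5.26, 5.41 and 5.41. Thus the transcript was listed at or near 0 in all 6 MDA-MB-468 samples, 3 of them at exactly 0, and was among the more abundant ZNF transcripts in MDA-MB-231. The log2 difference in control samples was -5.32 ± 0.07 (SE, n = 3 per group), and no fold of FPKM is given against a level at 0. The RefSeq promoter of ZNF655, 250 bases before to 50 after the start, lies at chr7:99558392-99558691 of GRCh38.p14 on the forward strand and holds 25 CG dinucleotides, shown in capitals. As many or fewer stand in 69.9% of the 35116 RefSeq promoters.
ZNF655: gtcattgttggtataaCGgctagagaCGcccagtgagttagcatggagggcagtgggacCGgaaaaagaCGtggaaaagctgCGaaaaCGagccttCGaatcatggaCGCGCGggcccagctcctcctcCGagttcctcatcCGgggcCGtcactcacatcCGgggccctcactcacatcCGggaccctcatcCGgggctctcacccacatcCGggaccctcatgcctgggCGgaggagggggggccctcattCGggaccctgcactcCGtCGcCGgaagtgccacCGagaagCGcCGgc

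On the other side stood ZNF713 (chr7:55955149-56010223, forward strand), a KRAB gene whose intron holds the repeat of the folate-sensitive fragile site FRA7A. The MDA-MB-468 controls read 4.33, 4.39 and 4.36 and the MDA-MB-231 controls 0.71, 0.67 and 0.55, without overlap. Its difference was 3.71 ± 0.09 (SE), or 19.5 against 0.563 FPKM. ZNF467 (chr7:149461271-149470677, reverse strand), a regulator of osteoblast and adipocyte commitment, read 4.19, 3.85 and 4.03 against 0.70, 1.52 and 1.42, a difference of 2.81 ± 0.22 (SE). Here the MDA-MB-231 controls were spread more widely than those of MDA-MB-468. ZNF165 (chr6:28048346-28057341, forward strand), a SCAN-domain gene known as a cancer-testis antigen, read 3.22, 3.33 and 3.53 against 0.68, 0.83 and 1.32. The difference was 2.42 ± 0.15 (SE) in control and 2.42 in KO samples.

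ZNF773 (chr19:58011283-58029772, forward strand) read 3.63, 3.11 and 3.37 in the MDA-MB-468 controls and 0.42, 1.0 and 0.66 in those of MDA-MB-231, a log2 difference of 2.68. ZNF599, ZNF256 and ZNF846, all KRAB genes of chromosome 19, differed by 2.30, 2.18 and 2.18, and ZNF704, a relative of the hypoxia-induced ZNF395, by 2.29. In all 8 genes of this group the 2 lines did not overlap in either genotype.

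**Figure D3:**
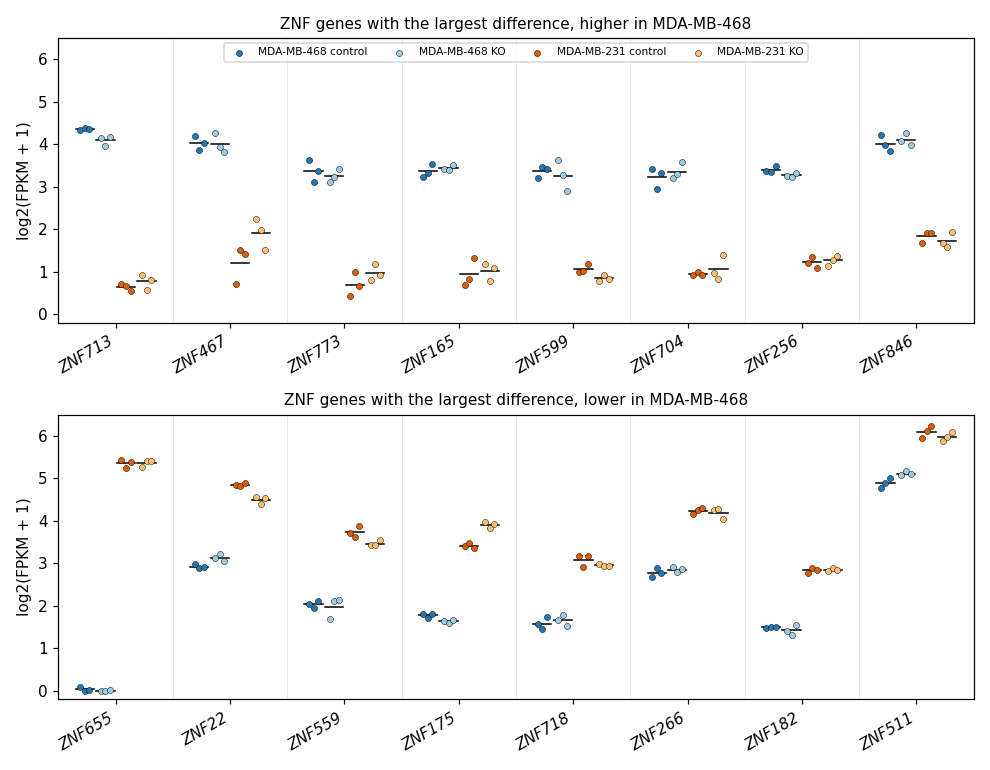
Log2(FPKM + 1) level in each of the 12 samples for the 8 ZNF genes with the largest difference in each direction, called in control and in KO samples. Points are samples, short bars are means of 3, and the lines separate without overlap in all 16 genes, with ZNF655 near 0 in MDA-MB-468.

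Among the genes lower in MDA-MB-468, ZNF22 (KROX26, a tooth development factor) read 2.97, 2.89 and 2.90 in the MDA-MB-468 controls and 4.85, 4.82 and 4.89 in those of MDA-MB-231, a difference of -1.93 ± 0.07 (SE, limma adjusted p = 5.01e-11). ZNF175 (OTK18, described as a regulator of viral transcription in macrophages) read 1.82, 1.72 and 1.80 against 3.42, 3.49 and 3.35, a difference of -1.64 ± 0.06 (SE). ZNF559 differed by -1.70, ZNF718 by -1.504, ZNF266 by -1.46, ZNF182 on the X chromosome by -1.34 and ZNF511 by -1.21. ZNF511 was the most abundant of these, at 28.6 FPKM in the MDA-MB-468 and 67.5 FPKM in the MDA-MB-231 controls. Among the 8 genes named in each direction, those lower in MDA-MB-468 thus covered a smaller range than those higher, apart from ZNF655. All 8 higher genes but only 4 of the lower ones had a mean under 2 in 1 line, so these ranges are a description only.

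The position of the genes was examined next. Of the 120 ZNF genes on chromosome 19, 69 were higher in MDA-MB-468 controls and 12 lower, with a median difference of 0.59. The other 660 genes of chromosome 19 in the table had 233 higher and 161 lower, with a median of 0.17. Among the 109 ZNF genes elsewhere, 42 were higher and 23 lower, with a median of 0.25. KRAB genes on chromosome 19 had 60 higher and 11 lower of 97 (median 0.61), and KRAB genes elsewhere 12 and 10 of 38 (median 0.21). Genes without a KRAB box had 8 higher and 1 lower of 22 on chromosome 19 (median 0.37) and 29 and 12 of 69 elsewhere (median 0.39). By the number of fingers, 13 of 39 genes with 0 to 4 fingers were higher, 31 of 68 with 5 to 9, 41 of 77 with 10 to 14 and 24 of 43 with 15 or more. These splits overlap, as KRAB genes of chromosome 19 also hold the most fingers, and no test between them was made. On chromosome 8, by contrast, 1 of 8 ZNF genes was higher and 4 lower, and on chromosome 4 all 4 were lower.

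The chromosome 19 genes were divided into 10 groups wherever neighbouring ZNF genes lay over 1 Mb apart, and their median differences ran from -0.45 to 0.97. In the first, from ZNF358 to ZNF846 (chr19:7580178-9903856), 1 of 11 was higher and 5 were lower in MDA-MB-468, with a median difference of -0.45. The 22 other genes of the table in the same interval had a median of -0.44. From ZNF146 to ZNF607 (chr19:36705504-38210662), 10 of 12 were higher and 0 lower by limma, with a median of 0.79 and all 12 above 0. The 7 other genes there had a median of 0.88. From ZNF576 to ZNF296 (chr19:44100544-45579736), 10 of 12 were higher and 0 lower, with a median of 0.62 against 0.55 for 16 other genes. The groups from ZNF653 to ZNF791 and from ZNF101 to ZNF43 had medians of 0.58 and 0.14, with 2 and 1 other genes at 0.25 and -1.80. In the 2 largest groups most ZNF genes were higher. From ZNF175 to ZNF331 (chr19:52074536-54083523), 13 of 22 were higher and 1 was lower, with a median of 0.67 against -0.33 for 8 other genes. From ZNF524 to ZNF324 (chr19:56111388-58986803), 20 of 35 were higher and 2 lower, with a median of 0.77 against 0.57 for 11 other genes. The part of the surrounding genes in these values was not tested.

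**Figure D4:**
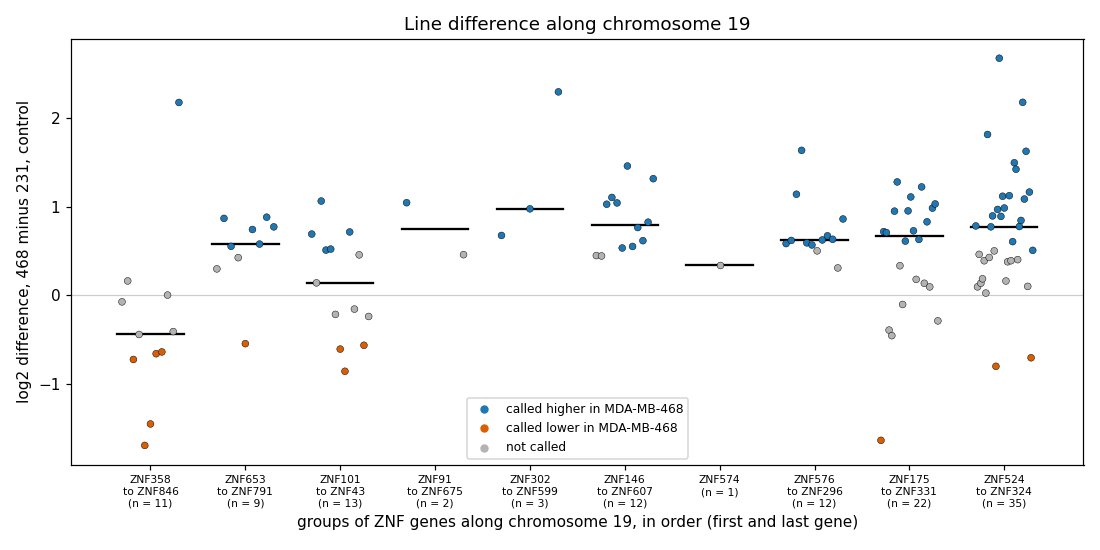
Log2 difference between the MDA-MB-468 and MDA-MB-231 control samples for the 120 ZNF genes of chromosome 19, in 10 groups in chromosomal order, with the median of each group as a bar. The first group centres at -0.45 and the groups from ZNF146 onward lie mostly above 0.

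Directly adjacent ZNF genes, with no other gene of the table between them, formed 101 pairs. Both genes were called in 43 pairs, and in 40 of these (93.0%) they were called in the same direction. Of the 4424 adjacent pairs of other genes with both called, 72.1% were called in the same direction, and the difference between these shares was not tested. The shares have unlike baselines, since 48.5% of the ZNF genes were called higher and 15.3% lower, against 32.8% and 31.4% of all genes. Such a lean to one direction raises the agreement of pairs by itself. The longest runs held 4 genes. ZNF559, ZNF266, ZNF426 and ZNF121 (chr19:9434448-9695180) were all lower in MDA-MB-468, by -1.70 to -0.64. ZNF461, ZNF567, ZNF568 and ZNF420 were all higher, by 0.53 to 1.46, and ZNF283, ZNF404, ZNF45 and ZNF155 by 0.57 to 1.64. ZNF419, ZNF773, ZNF549 and ZNF550 (chr19:57999079-58071231) were higher by 0.89 to 2.68, and ZNF417, ZNF418, ZNF256 and ZNF606 by 0.77 to 2.18. All but ZNF121 of these 20 genes encoded a KRAB box. Such neighbours are close copies in part, and the share of their reads that fits more than 1 gene was not tested.

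For ZNF773, the gene of these runs with the largest difference, the RefSeq promoter (chr19:57499688-57499987 of GRCh38.p14, forward strand) holds 30 CG dinucleotides, shown in capitals, and 79.3% of RefSeq promoters hold as many or fewer.
ZNF773: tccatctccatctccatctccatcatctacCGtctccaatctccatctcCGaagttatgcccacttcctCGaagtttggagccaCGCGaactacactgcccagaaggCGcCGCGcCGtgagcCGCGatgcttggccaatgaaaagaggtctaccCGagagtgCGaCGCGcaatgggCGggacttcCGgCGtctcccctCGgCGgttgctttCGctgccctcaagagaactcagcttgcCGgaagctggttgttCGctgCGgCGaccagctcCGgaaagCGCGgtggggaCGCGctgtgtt
The 198 ZNF genes found in the promoter table had a median of 22 CG dinucleotides per 300 bases, against 27 for the 8789 matched genes of the expression table and 14 for all RefSeq promoters. The median was 22 for the 98 genes higher in MDA-MB-468, 21 for the 28 lower and 23 for the 72 not called.

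Genes with a described role were then read from a list of 39, of which 29 were among the ZNF genes analysed. In control samples 11 of these were higher in MDA-MB-468 and 5 lower. ZNF217, an oncogene amplified in breast cancer, read 5.10, 5.05 and 5.01 in MDA-MB-468 and 4.25, 4.53 and 4.37 in MDA-MB-231 controls, a log2 difference of 0.67. The order was reversed for ZNF703, a breast cancer oncogene of the luminal subtype, which read 3.41, 3.38 and 3.49 against 4.08, 4.09 and 4.28, a difference of -0.72. ZNF395, which is induced by hypoxia, differed by -0.77, and ZNF143, which binds promoters and chromatin loop anchors, by -0.61. Among the repressors of transposable elements, ZNF91, which silences SVA elements, read 4.03, 3.62 and 3.85 against 2.496, 2.96 and 2.92, a difference of 1.04. ZNF93, which silences L1 elements, differed by 0.51, and ZNF638 by 0.99. ZNF148 and ZNF281, related factors that bind GC-rich promoters, were higher in MDA-MB-468 by 0.91 and 0.53. The ribosome-associated genes ZNF622 (a 60S maturation factor) and ZNF598 (a ubiquitin ligase of collided ribosomes) differed by 0.52, which was called, and -0.23, which was not. ZNF274, which recruits SETDB1 to the ends of other ZNF genes, differed by 0.10 and was not called.

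The second question was how SMARCA4 loss changed the ZNF genes. SMARCA4 itself fell by 1.16 on the log2 scale in MDA-MB-468 KO and by 1.57 in MDA-MB-231 KO. In MDA-MB-468, 1 of the 229 ZNF genes was called (a differentially expressed gene, DEG), where 2.14% of all genes were. The median change was -0.01, the changes ran from -0.45 to 0.59, and 47 genes (20.5%) had an unadjusted p under 0.05, against 25.1% of all genes. In MDA-MB-231 1 gene was a DEG, where 3.7% of all genes were, with a median change of 0.04, a range of -0.47 to 0.77 and 54 genes (23.6%) with an unadjusted p under 0.05, against 31.2% of all genes. The median SE of a change was 0.09 in both lines. In both lines 163 of the 229 genes stayed within 0.25 of control. Of the KRAB genes, limma called 0 of 135 in either line, with 21 and 28 at an unadjusted p under 0.05. Their median change was -0.07 in the former line and 0.04 in the latter, and that of genes without a KRAB box 0.04 and 0.03.

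The DEG of MDA-MB-468 was ZNF444 (EZF-2, a SCAN-domain factor of endothelial gene regulation, chr19:56643968-56672262, forward strand). It read 4.16, 4.05 and 4.13 in control and 4.67, 4.75 and 4.69 in KO samples, a rise of 0.59 ± 0.05 (SE, limma adjusted p = 0.0145) to 154% of the control FPKM. The groups did not overlap. In MDA-MB-231 it read 4.13, 4.08 and 4.07 against 4.21, 4.33 and 4.21, a change of 0.16 (adjusted p = 0.105 by limma), which was not called. The MDA-MB-468 call held without KO replicate 1 and was lost without any other of the 6 samples, with adjusted p from 0.0508 to 0.0814. With a replicate block the change of 0.59 had an adjusted p of 0.0473 by limma. After correction for GC content and transcript length the change was 0.38 (adjusted p = 0.0308 by limma) and so under the limit of 0.5. ZNF444 has a GC content of 68.7%, against a median of 43.5% for the ZNF genes. Without KO replicate 1, 4 genes were called: ZNF444, ZNF404 (0.56), ZNF789 (0.59) and ZNF253 (-0.54).

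The DEG of MDA-MB-231 was ZNF488 (a transcriptional repressor with a role in oligodendrocyte development, chr10:48355069-48373866, forward strand). It read 1.70, 1.99 and 2.13 in control and 2.62, 2.80 and 2.72 in KO samples, a rise of 0.77 ± 0.12 (SE, limma adjusted p = 0.0228) to 194% of the control FPKM. In MDA-MB-468 it read 2.73, 2.54 and 2.41 against 2.92, 2.79 and 2.92, a change of 0.32 (adjusted p = 0.118 by limma). The groups did not overlap in either line. The MDA-MB-231 call was lost without KO replicate 1, 2 or 3 or control replicate 2, with adjusted p of 0.0662, 0.0945, 0.0599 and 0.0593. With a replicate block the change of 0.77 had an adjusted p of 0.0707 by limma and was not called. Without KO replicate 3 the genes called were ZNF28 (-0.58) and ZNF362 (0.55), and without control replicate 2 the only one was ZNF175 (0.53).

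ZNF239 (MOK2, a DNA- and RNA-binding protein that associates with lamins) was the only ZNF gene past the threshold on the adjusted p in both lines, below the fold limit in each. Its samples read 2.69, 2.78 and 2.84 against 3.06, 3.26 and 3.28 in MDA-MB-468, and 2.74, 2.58 and 2.61 against 3.01, 2.99 and 3.20 in MDA-MB-231. The changes were 0.43 ± 0.08 and 0.42 ± 0.08 (SE, limma adjusted p = 0.0484 and 0.0331). KO and control samples did not overlap in either line. The other genes with the smallest p in MDA-MB-468 were ZNF608 (-0.23), ZNF253 (-0.45) and ZNF428 (0.31), with adjusted p from 0.0592 to 0.0628 by limma, which were not called. In MDA-MB-231 they were ZNF175 (0.49), ZNF514 (0.41) and ZNF22 (-0.35), with adjusted p from 0.0136 to 0.0256 by limma and changes under the limit. Without the fold limit, the threshold on the adjusted p alone was passed by 14 ZNF genes (6.1%) of MDA-MB-231, where 10.8% of all genes passed it, and by 2 of MDA-MB-468, where 3.75% did.

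By non-overlap of the samples, all 3 KO samples lay above the controls for 27 ZNF genes (12%) and below for 32 (14%) in MDA-MB-468, where 17.5% and 13.5% of all genes did so. In MDA-MB-231 the counts were 39 (17%) and 23 (10%), against 16.6% and 19.4%. The KO changes of the ZNF genes rose with the GC content of the transcript, with a Pearson correlation across the 229 genes of 0.34 for the MDA-MB-468 and 0.26 for the MDA-MB-231 change, as they did across the 10883 annotated genes of the table with 0.24 and 0.26. After correction for GC content and length the values for the ZNF genes were -0.09 and -0.14. With that correction the median change was 0.01 (MDA-MB-468) and 0.05 (MDA-MB-231). Across the 229 genes, the changes in the 2 lines, which share no samples, had a Pearson correlation of 0.09.

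Of the genes with a described role, limma called 0 of 29 in either KO comparison, with 3 (MDA-MB-468) and 8 (MDA-MB-231) at an unadjusted p under 0.05. Over all genes 2.14% and 3.7% were called and 25.1% and 31.2% had such a p, so a count of 0 in 29 is near the background. The widest changes were 0.40 for ZNF598 in MDA-MB-468, with control samples at 4.33, 4.64 and 4.58 and KO samples at 4.85, 4.92 and 4.97, and 0.31 for ZNF217 in MDA-MB-231, with 4.25, 4.53 and 4.37 against 4.80, 4.62 and 4.65. Their adjusted p was 0.0710 and 0.0807 by limma, so neither was called, although the samples did not overlap.

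Whether the KO change differed between the lines was tested as an interaction. It was called for 5 of the 229 ZNF genes, where 8.71% of all genes were called, and 48 (21.0%) had an unadjusted p under 0.05, against 31.5% of all genes. In 4 of the 5 the KO change of MDA-MB-468 was the lower one and in 1 the higher, where 4.41% and 4.29% of all genes were called in these directions. ZNF175 changed by -0.13 in MDA-MB-468 cells and by 0.49 in MDA-MB-231 cells, a difference of -0.62 ± 0.09 (SE, limma adjusted p = 0.00162). Its MDA-MB-468 KO samples read 1.66, 1.61 and 1.68, all below the controls, and its MDA-MB-231 KO samples 3.98, 3.83 and 3.93, all above. ZNF22 moved the other way, by 0.21 and -0.35, a difference of 0.56 ± 0.09 (SE, limma adjusted p = 0.00357). Its KO samples read 3.12, 3.22 and 3.06 in MDA-MB-468 and 4.57, 4.40 and 4.53 in MDA-MB-231, apart from the controls in both lines. ZNF175 and ZNF22 were both lower in MDA-MB-468 controls, so that the gap between the lines was wider in KO samples for ZNF175 (-2.27 against -1.64) and narrower for ZNF22 (-1.37 against -1.93).

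ZNF397, a SCAN-domain gene, read 2.81, 2.87 and 3.13 in control and 2.53, 2.67 and 2.78 in KO samples of MDA-MB-468, and 2.29, 2.46 and 2.35 against 2.55, 2.86 and 2.92 in MDA-MB-231, a difference of -0.68 ± 0.16 (SE, limma adjusted p = 0.0185). ZNF391 and ZNF862, a gene derived from a DNA transposon, differed by -0.59 and -0.57 (limma adjusted p = 0.0362 and 0.0294). None of these 3 was a DEG within a line. The calls of ZNF175, ZNF22 and ZNF397 held without any 1 of the 12 samples. After correction for GC content and length the difference of ZNF22 was 0.49 (adjusted p = 0.00281 by limma), under the limit of 0.5, that of ZNF862 was -0.46 (adjusted p = 0.0592 by limma), and 4 genes were called, ZNF175, ZNF391, ZNF397 and ZNF496 (0.53). The call of ZNF391 was lost without 9 of them, all but MDA-MB-231 KO replicate 3, MDA-MB-231 control replicate 2 and MDA-MB-468 KO replicate 3, with adjusted p up to 0.0878. That of ZNF862 was lost without 8, all but MDA-MB-231 KO replicate 3, MDA-MB-231 control replicate 2, MDA-MB-468 KO replicate 1 and MDA-MB-468 control replicate 3, with adjusted p up to 0.0742. The number of ZNF genes called ran from 3, without MDA-MB-231 KO replicate 2, to 10, without MDA-MB-231 KO replicate 3. It was 9 without MDA-MB-231 control replicate 2 or 3.

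**Figure D5:**
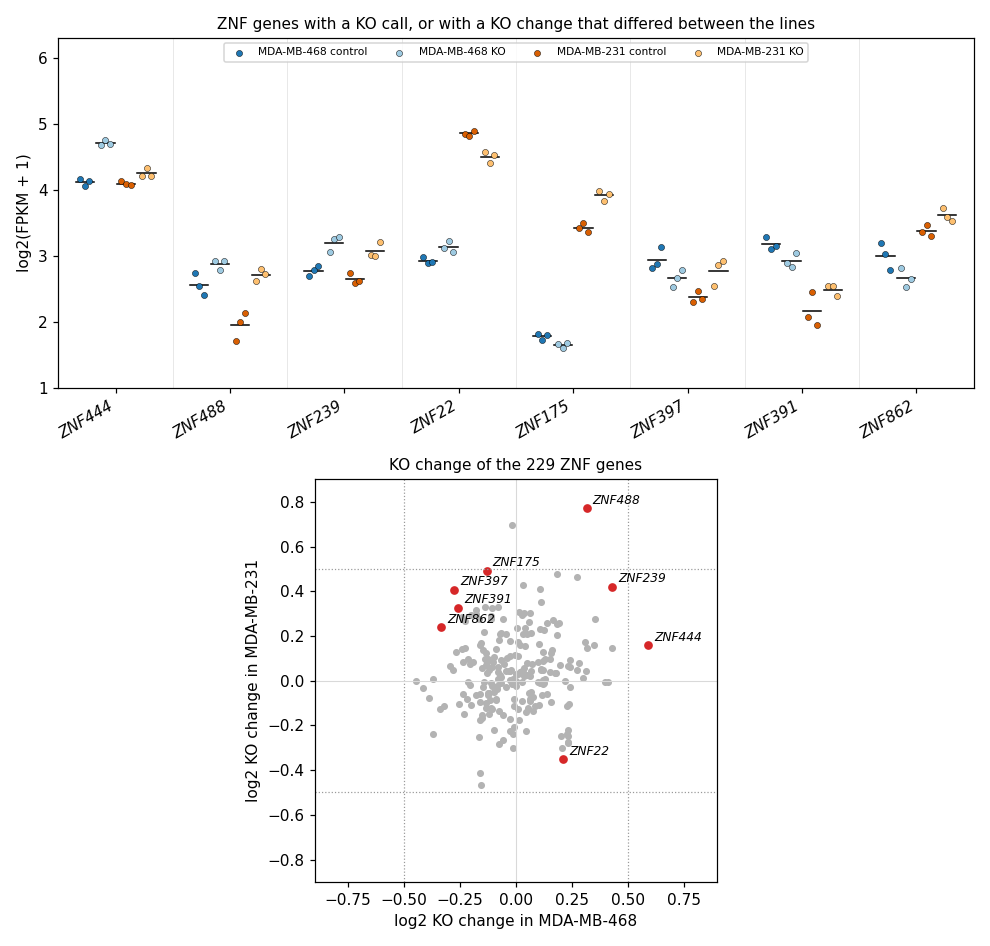
Upper panel, log2(FPKM + 1) level in each of the 12 samples for ZNF239 and for the 7 ZNF genes called in a KO comparison or in the interaction, with means of 3 as bars. Lower panel, KO change of the 229 ZNF genes in MDA-MB-468 (horizontal) and MDA-MB-231 (vertical), with dotted lines at the limit of 0.5 and no overall relation between the lines (Pearson correlation 0.09).

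The partners through which KRAB-ZNF proteins act were read from a list of 22 corepressor and heterochromatin genes, 21 of which were in the table. TRIM28 had a log2 level of 8.98 in MDA-MB-468 controls and 8.76 in MDA-MB-231 controls, above every ZNF gene, and its difference of 0.23 was not called. SETDB1 was higher in MDA-MB-468 by 0.90, the HP1 genes CBX3 and CBX5 by 1.103 and 1.08 and the DNA methyltransferase DNMT1 by 1.29, whereas CBX1 differed by -0.61, the HUSH subunit MPHOSPH8 by -0.69 and UHRF1 by -1.36. In all, 9 of the 21 were higher and 3 lower, where 32.8% and 31.4% of all genes were. In the KO comparisons limma called 0 of the 21 in either line, with 3 and 5 at an unadjusted p under 0.05. Over all genes 2.14% and 3.7% were called and 25.1% and 31.2% had such a p, so a count of 0 in 21 is near the background. The widest change was that of ATF7IP, a SETDB1 partner, which was -0.35 in MDA-MB-468 (limma adjusted p = 0.102). The threshold on the adjusted p alone was passed by 1 of the 21 in MDA-MB-231, where 10.8% of all genes passed it. That was SETDB1, with a change of 0.23 (limma adjusted p = 0.0459). In MDA-MB-468 it was passed by 0, where 3.75% of all genes did.

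Among related families of zinc finger genes, which the rule left out, 11 of 13 ZFP genes were higher in MDA-MB-468 controls and 0 lower by limma (median 0.96), as were 7 of 9 ZSCAN genes with 1 lower (median 0.83). Of 25 ZBTB genes, which join zinc fingers to a BTB domain, 10 were higher and 8 lower (median 0.27). Of 17 KLF and SP genes 7 were higher and 5 lower (median 0.27). Of 19 ZNF genes with a letter after the number, 8 were higher and 6 lower (median 0.46). Of 3 ZKSCAN genes 1 was higher and 1 lower (median -0.22). Over all genes 32.8% were called higher and 31.4% lower. These families had no limit on the mean, so genes low in 1 line, which had to differ, can be among them. Of the 38 numbered ZNF rows below the limit, 25 were higher and 11 lower. That is 94.7% called, against 64.2% of all genes. At such low levels the authors' SD filter favours genes that are high in 1 line, so this count is a description only. Among the line markers, CDH1 had a mean log2 level of 5.50 in MDA-MB-468 controls and of 0.34 in MDA-MB-231 controls, and VIM of 1.82 and 10.35. ESR1 and PGR were not in the table, and of 8 leukocyte and fibroblast markers only CD14 was, at 5.66 and 1.102. CD14 changed by -0.57 in MDA-MB-468 KO, which was not called, and rose by 1.18 in MDA-MB-231 KO. Its part in the ZNF results was not tested.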

How the data were processed

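Reads of 12 RNA libraries (TruSeq Stranded mRNA kit) were, according to the study's methods, trimmed with Trimmomatic, aligned with STAR (2.5.2a, two-pass) to hg19 and quantified with RSEM (v1.1.13). The authors filtered out genes whose FPKM had a mean or an SD below 1, and deposited log2 values of FPKM with a pseudocount of 1 for 11529 genes. The depth is not given, so no counting interval was computed.

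Samples were grouped by cell line and genotype from the titles. The values were fitted with limma 3.58.1 in R 4.3.3 (linear models with moderated variances, no intensity trend), KO against control within each line, and all 12 samples in 4 groups for the line differences and the interaction, with Benjamini-Hochberg adjustment over the 11529 genes. Calls needed a log2 difference over 0.5 in size together with an adjusted p under 0.05. The fit was tested on simulated data. The ZNF genes and all lists were chosen with earlier results of these data known. Named are called genes and those with the smallest p, the 8 with the largest line difference each way, the 5 of the interaction, the 10 highest, listed genes, genes at the limit and runs of neighbours. ZNF789, ZNF28, ZNF362, ZNF697, ZNF219 and ZNF496, called under alternatives, were named after their values were seen.

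Positions, GC content and coding sequences came from GENCODE release 44 on GRCh37, which matched 94.4% of the rows, 4 ZNF genes by older names. Fingers and KRAB boxes were found in the longest open frame, in place of RefSeq proteins as first intended; 227 ZNF genes had a frame, and a short frame, as for ZNF274, can miss them. Promoters came from RefSeq (GRCh38.p14). In MDA-MB-468, deviations of same-numbered control and KO samples from their group means correlated at 0.25, 0.16 and 0.12 across all genes. Each was over 0.1, so the numbers from the titles were taken to pair the samples in the alternative fits with a replicate block. The main fits held no block. Control 3 with KO 2, which differ in number, correlated at 0.13, above control 3 with KO 3, so the pairing in this line is uncertain. The p numbers in the descriptions differ there: they pair control 1 with KO 2 and control 2 with KO 3, which correlated at -0.23 and 0.03, and leave 1 sample of each group alone. No block was fitted on them. Fits with a replicate block, other scalings, filters, pseudocounts and a loess correction for GC content and length were alternatives.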

Additional observations from a re-analysis of the deposited data

Results flagged for a closer look

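The KO change differed between MDA-MB-468 and MDA-MB-231 by the interaction test of limma for 5 ZNF genes. The difference, MDA-MB-468 minus MDA-MB-231, was -0.68 for ZNF397, -0.62 for ZNF175, -0.59 for ZNF391, -0.57 for ZNF862 and 0.56 for ZNF22. These 5 are 2.18% of the ZNF genes, where 8.71% of all genes were called. In ZNF175 and ZNF22 all 3 KO samples lay on one side of the controls in one line and on the other side in the other line, as they did in ZNF397.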

How the results depend on the processing

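The counts of line calls stayed between 132 and 180 in control and between 137 and 176 in KO samples, apart from 61 in each with genes of a mean of at least 3, and 53 and 42 with a fold limit of 1. The 180 and 176 came with genes from a mean of 1. Sets chosen by another mean differ in size, so their counts cannot be compared as shares. Leaving out 1 sample gave 139 to 148 and 139 to 150. After quantile normalization 92 of the 132 control calls were higher in MDA-MB-468. With a mean of at least 2 in each line, an alternative chosen after seeing the data, the counts were 105 and 100. The single KO call in MDA-MB-468 became 0 with correction for GC content and length, with or without the replicate block, and with the fold limit of 1, and ranged from 0 to 4 without 1 sample. The single KO call in MDA-MB-231 became 4 with a pseudocount of 0.1 (ZNF175, ZNF219, ZNF362 and ZNF488), 3 when scaled to the 75th percentile (ZNF175, ZNF219 and ZNF488), 2 after quantile normalization or GC and length correction, alone or with the block (ZNF488, and ZNF697 lower), 2 with genes from a mean of 1, and 0 with genes from a mean of 3 or the fold limit of 1, ranging from 0 to 2 without 1 sample. In MDA-MB-231 the replicate numbers of the titles and the p numbers pair the same samples. These correlated at -0.05, 0.07 and -0.11, so whether they are paired is uncertain. The replicate block there gave 0 calls (ZNF488 adjusted p = 0.0707 by limma). The block changed no count in the other 4 comparisons. In this balanced design a block cannot move a difference, only its p-value. For the line differences it joined samples of the same replicate number across the lines, which no label pairs. The 5 interaction calls became 9 with a pseudocount of 0.1 or 75th percentile scaling, 8 with genes from a mean of 1, 4 after GC and length correction, alone or with the block, 2 from a mean of 3, 0 with the fold limit of 1, and 3 to 10 without 1 sample. Over all alternatives, adjusted p by limma ranged from 0.000184 to 0.0814 for ZNF444 and from 0.00121 to 0.0945 for ZNF488. The cause of these shifts was not tested. Read depth is unknown, so what it limits cannot be stated.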
